A study of Mus musculus with 4 samples.

Results

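The MYC and MAX network is described here by 10 mouse genes, Myc, Mycn, Mycl, Max, Mxd1, Mxi1, Mnt, Mlx, Mlxip and Mga, chosen by name from 21670 protein-coding genes of the autosomes and X. For each of them every Foxr2 peak in the gene body or within 10 kb of it was collected, and for Myc and Mycn the 500 kb either side was searched as well. This gave 24 peaks at the 10 genes in one replicate of the Foxr2 line and 33 in the other, out of 31909 and 38580 peaks.

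The peaks come from CUT&RUN, in which an antibody brings a nuclease to a protein on chromatin so that the bound DNA is released and sequenced. The antibody recognised V5, a short peptide tag fused to the end of FOXR2. The Foxr2 p53LOF line (2 replicates) is a neurosphere line from a C57BL/6J tumour made by in utero electroporation (IUE), with FOXR2-V5 placed in the genome by the piggyBac transposon under the strong, ubiquitous CAG promoter and Trp53 targeted by CRISPR. The V5 control (2 replicates) comes from another IUE model of the same strain, for which the labels give the genotype H3.3G34R, and lacks the tag. Each sample held 500000 cells, fixed with 0.1% formaldehyde for 1 minute. FOXR2 was therefore measured at an overexpressed level in a single line, and the control differs from it in genotype as well as in the tag. Nothing in the labels says that the replicates were separate cultures, so the spread between them may be technical. Peak lists hold no transcript levels, so neither the identity of the lines nor the expression of the network genes could be checked in them.

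MYC, MYCN and MYCL are transcription factors that bind DNA as pairs with MAX at the E-box CACGTG and drive growth, ribosome production and metabolism. MXD1, MXI1, MNT and MGA compete for MAX and mostly repress the same kind of promoter, and MLX with its partner MLXIP forms a parallel arm that responds to glucose products. MYC and MYCN are common oncogenes of embryonal tumours of the nervous system, and FOXR2 has been described as a protein that can bind MYC.

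The 4 network promoters with an E-box near the Foxr2 summit are shown first, followed by the Myc promoter and by the highest sites away from coding starts around Myc and Mycn, since the results turn on them. Sequences were read from GRCm38.p6, the assembly behind mm10, and stop short of any annotated untranslated region. Capitals mark CACGTG (a palindrome), the forkhead sequence TGTTTAC on either strand, and GACGC, a second forkhead-type sequence, on either strand; only the first and the second of these occur in the windows. The windows lie at chr11:74830598-74830837 for Mnt (plus strand), chr12:76962467-76962706 for Max (printed on the minus strand, the strand of the gene), chr11:101087023-101087262 for Mlx (plus), chr5:123394421-123394660 for Mlxip (plus), chr15:61985151-61985390 for Myc (plus), chr15:62038201-62038440 for the site at the start of Pvt1 (plus) and chr12:12684714-12684953 for the distal site near Mycn (plus).
Mnt promoter: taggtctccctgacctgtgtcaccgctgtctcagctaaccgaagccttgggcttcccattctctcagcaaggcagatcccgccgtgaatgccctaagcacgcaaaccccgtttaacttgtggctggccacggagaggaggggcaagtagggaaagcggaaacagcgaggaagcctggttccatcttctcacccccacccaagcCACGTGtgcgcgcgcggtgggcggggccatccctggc
Max promoter: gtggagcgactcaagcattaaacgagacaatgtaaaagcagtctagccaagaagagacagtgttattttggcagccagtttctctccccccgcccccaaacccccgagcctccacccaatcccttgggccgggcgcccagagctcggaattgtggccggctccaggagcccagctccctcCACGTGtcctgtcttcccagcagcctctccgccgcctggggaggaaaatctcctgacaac
Mlx promoter: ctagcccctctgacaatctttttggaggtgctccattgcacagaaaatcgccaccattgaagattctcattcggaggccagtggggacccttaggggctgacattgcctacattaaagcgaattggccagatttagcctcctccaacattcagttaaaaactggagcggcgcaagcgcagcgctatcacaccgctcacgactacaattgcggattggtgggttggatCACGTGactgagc
Mlxip promoter: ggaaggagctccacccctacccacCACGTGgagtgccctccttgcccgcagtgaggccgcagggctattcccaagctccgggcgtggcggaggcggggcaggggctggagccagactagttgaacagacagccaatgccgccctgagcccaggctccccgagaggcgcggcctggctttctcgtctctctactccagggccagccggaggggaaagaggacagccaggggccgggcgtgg
Myc promoter: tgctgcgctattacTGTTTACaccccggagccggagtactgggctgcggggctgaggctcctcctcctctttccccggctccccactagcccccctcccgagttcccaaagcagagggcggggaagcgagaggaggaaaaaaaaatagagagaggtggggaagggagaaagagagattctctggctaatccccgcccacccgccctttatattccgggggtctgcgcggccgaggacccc
Pvt1 start site: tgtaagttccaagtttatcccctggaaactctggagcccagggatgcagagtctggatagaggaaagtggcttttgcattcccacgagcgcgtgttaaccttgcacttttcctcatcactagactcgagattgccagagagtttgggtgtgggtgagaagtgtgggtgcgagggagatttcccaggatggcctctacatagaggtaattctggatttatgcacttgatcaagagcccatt
Mycn distal site: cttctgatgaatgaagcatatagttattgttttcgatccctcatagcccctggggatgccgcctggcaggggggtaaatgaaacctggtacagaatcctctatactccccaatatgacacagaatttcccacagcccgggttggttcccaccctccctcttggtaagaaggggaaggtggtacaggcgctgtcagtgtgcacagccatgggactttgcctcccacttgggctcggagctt

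A peak's fold is the number of fragments at its summit plus 1, divided by the background of its library plus 1, and the fragment numbers were recovered from the folds and p-values. The recovered background was 1.26 fragments in replicate 1 and 2.04 in replicate 2 of the Foxr2 line, and the 2 control lists held 308 and 124 peaks. Peaks with a fold above 6, a −log10 q above 6, a length under 10000 bp and no overlap with a control peak were kept. Stretches lying under kept peaks of both replicates are called reproducible sites, and there were 11947 of them. Sites were densest on chromosome 11 (9.67 per Mb), which carries Mnt and Mlx, and next on chromosome 15 (6.31 per Mb), which carries Myc. On chromosome 12, with Mycn and Max, they were sparser (3.01 per Mb) than on any other autosome. Chromosome 11 also had the highest median site fold of the 20 chromosomes, 10.6 in replicate 1 and 12.5 in replicate 2.

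Foxr2 peaks lay at the promoters of the whole network. Before any filter, peaks of both replicates overlapped within 1 kb of a coding start of all 10 genes, compared with 51.6% of protein-coding genes. After the filter, 9 of the 10 genes had a reproducible promoter site and Mycl did not, against a background of 39.7%. Promoter sites are more common where the start is rich in CpG, and all 10 network genes have at least 10 CpG in the 200 bp around the start. Among the 10990 genes of that kind, 63.5% had a promoter site, and this limit was chosen after the data were seen. The wider gene region gave the same 9 genes, where 50.3% of all genes had a site. No control peak fell in the region of any of the 10 genes (background 0.558%), and the nearest one was 648 kb away, from Mlx. The difference between the 9 of 10 genes and either background was not tested, because the genes were chosen with earlier results known.

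**Figure D1:**
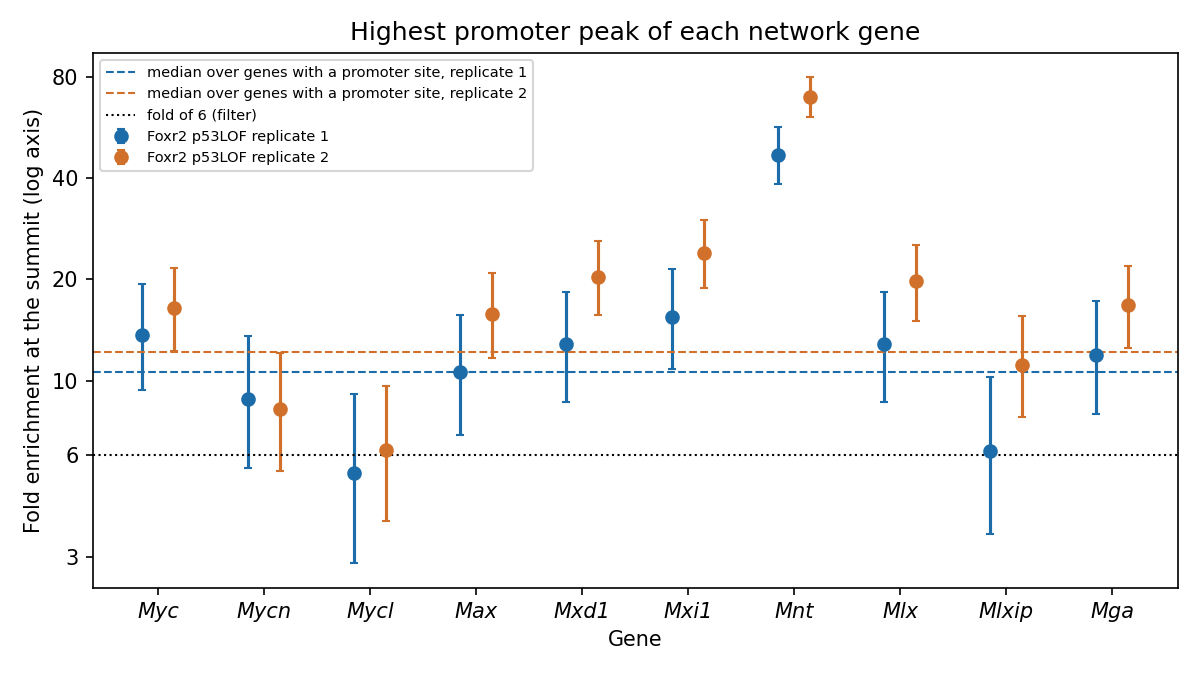
Fold enrichment at the summit of the highest promoter peak of each network gene (log axis) in both replicates of the Foxr2 p53LOF line. Bars are exact Poisson 95% intervals that cover counting error only, dashed lines are the replicate medians over the 8599 genes with a promoter site (10.6 and 12.2), and the dotted line is the fold of 6 needed to pass. Mnt stands far above the other genes in both replicates, and Mycl lies around the dotted line.

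Among the MYC paralogs, Myc had the highest promoter peak and Mycl the lowest. The Myc peak, over 4959 bp in replicate 1 and 5747 bp in replicate 2, had a fold of 13.7 (30 fragments, 95% interval of the fold 9.39 to 19.4) in replicate 1 and 16.4 (49 fragments, 12.2 to 21.6) in replicate 2. Its site spanned chr15:61983190-61988148, and the summits were 92 bp upstream of a coding start and on that start. Of the genes with a promoter site, 74.1% had a lower site than Myc, where each gene is ranked by the lower of its 2 replicate folds. The printed Myc window holds TGTTTAC once and no E-box, and no E-box was found anywhere in the replicate 1 peak.

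Mycn, the paralog best known from neuroblastoma, had a weaker site at chr12:12940946-12942825. Its fold was 8.84 in replicate 1 (19 fragments, 5.50 to 13.6) and 8.21 in replicate 2 (24 fragments, 5.38 to 12.1). The summits stood 765 bp apart, one 458 bp upstream of a coding start and the other 307 bp inside the gene, whereas the median gap between the summits of a promoter site was 83 bp. Only 29.0% of genes with a promoter site had a lower one.

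Mycl, the third paralog, had a promoter peak in both replicates that fell on either side of the threshold. The fold was 5.30 in replicate 1 (11 fragments, 2.87 to 9.14, −log10 q 5.52) and 6.24 in replicate 2 (18 fragments, 3.83 to 9.68, −log10 q 9.59). A fold above 6 needed 13 fragments in replicate 1, so Mycl missed it by 2, and both intervals include 6. The absence of a reproducible Mycl site is therefore not distinguishable at this depth from a site just above the threshold. By fold, the Mycl peak stood at percentile 49.1 of all replicate 1 peaks and at percentile 62.3 of replicate 2. Most peaks of either list, however, lay away from coding starts. Those within 1 kb of a coding start had median folds of 7.95 and 8.87, above the Mycl peak in each replicate.

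Max, the shared partner, had a single peak in each replicate and no other peak within its region. Its fold was 10.6 in replicate 1 (23 fragments, 6.88 to 15.7) and 15.8 in replicate 2 (47 fragments, 11.7 to 20.9), at chr12:76961153-76963259. The summits coincided within 5 bp, 445 and 450 bp upstream of the coding start. An E-box stands 122 bp from the replicate 1 summit, 323 bp upstream of the start, and a second one lies 48 bp upstream of the start.

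Of the antagonists of MYC, Mnt and Mxi1 had the highest promoter sites of the network in both replicates, while Mxd1 and Mga were below Myc by the lower of their 2 folds. Mnt, a repressor present in both resting and growing cells, had a fold of 46.8 in replicate 1 (105 fragments, 38.4 to 56.6) and 69.6 in replicate 2 (211 fragments, 60.6 to 79.7). This site, chr11:74828956-74833333, ranked 14th among the 8599 genes with a promoter site and 2nd among the 866 of chromosome 11. The intervals of Mnt did not overlap those of Mxi1, the next highest gene, in either replicate. Its summits were 10 bp apart, 282 and 292 bp upstream of the first coding start, and the E-box of the printed window lies 116 bp upstream of that start and 166 bp from the replicate 1 summit. A second Mnt site, chr11:74837049-74839109, surrounds a coding start inside the gene and had folds of 20.8 (46 fragments) and 21.03 (63 fragments). These summits fell in an intron, 960 and 596 bp downstream of that start. Chromosome 11 has the highest site level of all, and divided by the median site fold of chromosome 11 relative to that of all sites, the Mnt folds became 41.0 and 60.5, still the highest of the network.

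Mxi1, which pairs with MAX and recruits corepressors, had 3 sites. The highest, chr19:53310373-53314594, had a fold of 15.5 in replicate 1 (34 fragments, 10.8 to 21.4) and 24.0 in replicate 2 (72 fragments, 18.8 to 30.1). Its summits were in an intron, 985 and 1001 bp downstream of the nearest of 8 coding starts, in sequence poor in CpG (1 and 2 CpG in the 200 bp windows). That start, chr19:53313066, is inside the gene, which begins at chr19:53310518. A second promoter site at internal coding starts, chr19:53328400-53330258, was close to the threshold at 6.19 and 8.21. The third site was intronic, chr19:53359399-53361142, 30.2 kb and 30.1 kb downstream of the nearest coding start, with folds of 10.2 (22 fragments) and 15.1 (45 fragments).

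Mxd1, a repressor linked to differentiation, had a fold of 12.8 in replicate 1 (28 fragments, 8.66 to 18.3) and 20.4 in replicate 2 (61 fragments, 15.7 to 26.1) at chr6:86668990-86671294. The summits were 162 and 208 bp upstream of the start. Mga, a large MAX partner that carries a T-box domain as well, had a fold of 11.9 in replicate 1 (26 fragments, 7.95 to 17.3) and 16.8 in replicate 2 (50 fragments, 12.5 to 22.0) at chr2:119896703-119898371. Its summits were 6 bp apart and 68 and 62 bp downstream of a coding start. Mga and Mxd1 had no further reproducible site in their regions.

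In the MLX arm, Mlx was close to the typical antagonist and Mlxip was near the threshold. Mlx had a fold of 12.8 in replicate 1 (28 fragments, 8.66 to 18.3) and 19.7 in replicate 2 (59 fragments, 15.1 to 25.3) at chr11:101086535-101088124, with summits 172 and 248 bp upstream and an E-box only 24 bp upstream of the start. Another pair of sites lay within 10 kb of Mlx, and each was at the promoter of a neighbour. The first was at Coasy, which encodes the enzyme for the last steps of coenzyme A synthesis (13.7 and 17.4), and the second at Psmc3ip, a meiotic recombination factor (12.4 and 15.1).

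Mlxip, which encodes MondoA, had a fold of 6.19 in replicate 1 (13 fragments, 3.50 to 10.3), the lowest that passes, and 11.2 in replicate 2 (33 fragments, 7.79 to 15.6) at chr5:123394245-123395865. Its E-box is 350 bp upstream of the start and 187 bp from the replicate 1 summit. An intronic Mlxip site at chr5:123416426-123417428, 22.0 kb and 21.9 kb downstream of the start, was as low, with folds of 6.63 (14 fragments) and 6.24 (18 fragments). A further intronic peak was present in both replicates at 5.30 and 5.91 and missed the threshold in both.

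**Figure D2:**
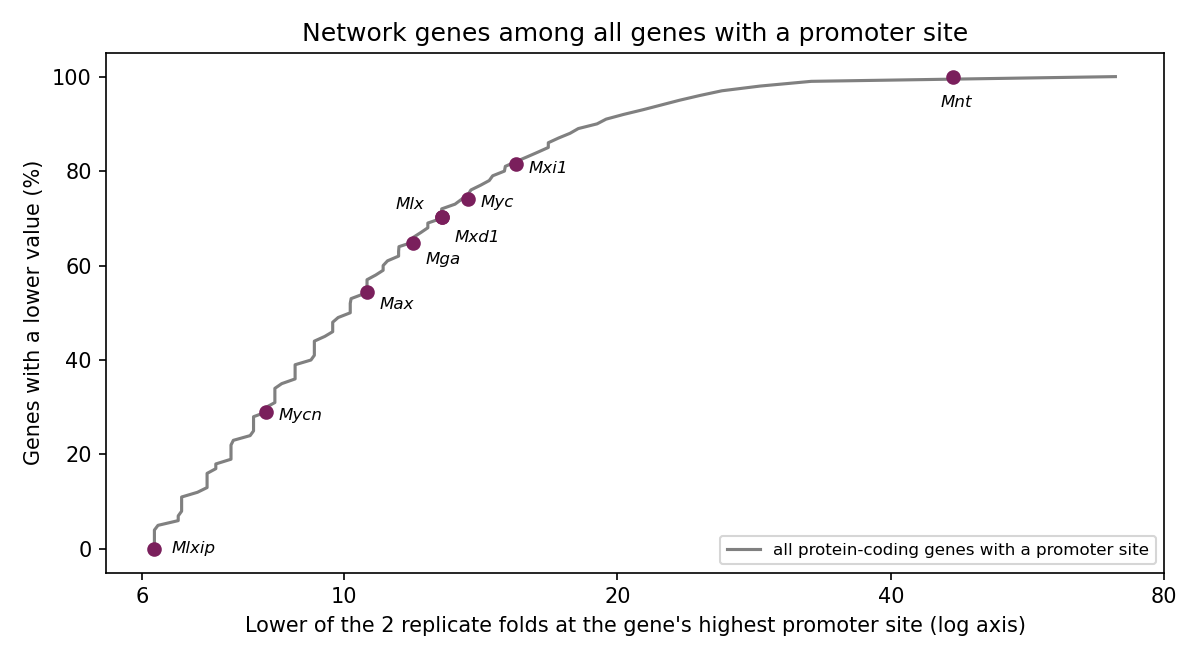
The lower of the 2 replicate folds at the highest promoter site of each gene (log axis) against the percentage of genes with a lower value. The grey line is drawn through the percentiles of all 8599 genes with a promoter site, and points are the 9 network genes that have one. Mnt lies at the upper end (99.8% of genes lower), Mycn is below the median and Mlxip is at the threshold.

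By the lower of the 2 folds the order of the promoters was Mnt, Mxi1, Myc, Mxd1 and Mlx (tied), Mga, Max, Mycn, Mlxip and Mycl. Every pair of neighbours in this order after Mnt had overlapping counting intervals in both replicates. The fold was higher in replicate 2 than in replicate 1 at 13 of the 15 reproducible sites of the network, and the same held at 75.1% of all sites. The exceptions were Mycn and the intronic site of Mlxip.

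Away from the promoters the network had weaker peaks, as did the genome as a whole. Before any filter, the 12 promoter peaks of replicate 1 had a median fold of 12.4 and the 12 distal ones 4.64. In replicate 2 the 12 promoter peaks had a median of 16.6 and the 21 distal ones 4.27. Over all peaks, those within 1 kb of a coding start had medians of 7.95 and 8.87 and the others 4.42 and 4.27. In each replicate 3 of the distal peaks of the network lay at the start of another gene, and the remaining 9 and 18 had medians of 3.98 and 4.27. Of the distal peaks, 4 passed the filter in each replicate, and they form the 4 distal sites of Mxi1, Mlx and Mlxip already described. A distal site was thus found at 3 of the 10 genes, close to the background of 25.8% of all genes. Of the peaks that did not pass, a pair downstream of Mga (5.30 and 5.26) lay at the start of Mapkbp1, and a pair downstream of Myc had folds of 3.98 and 4.60.

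**Figure D3:**
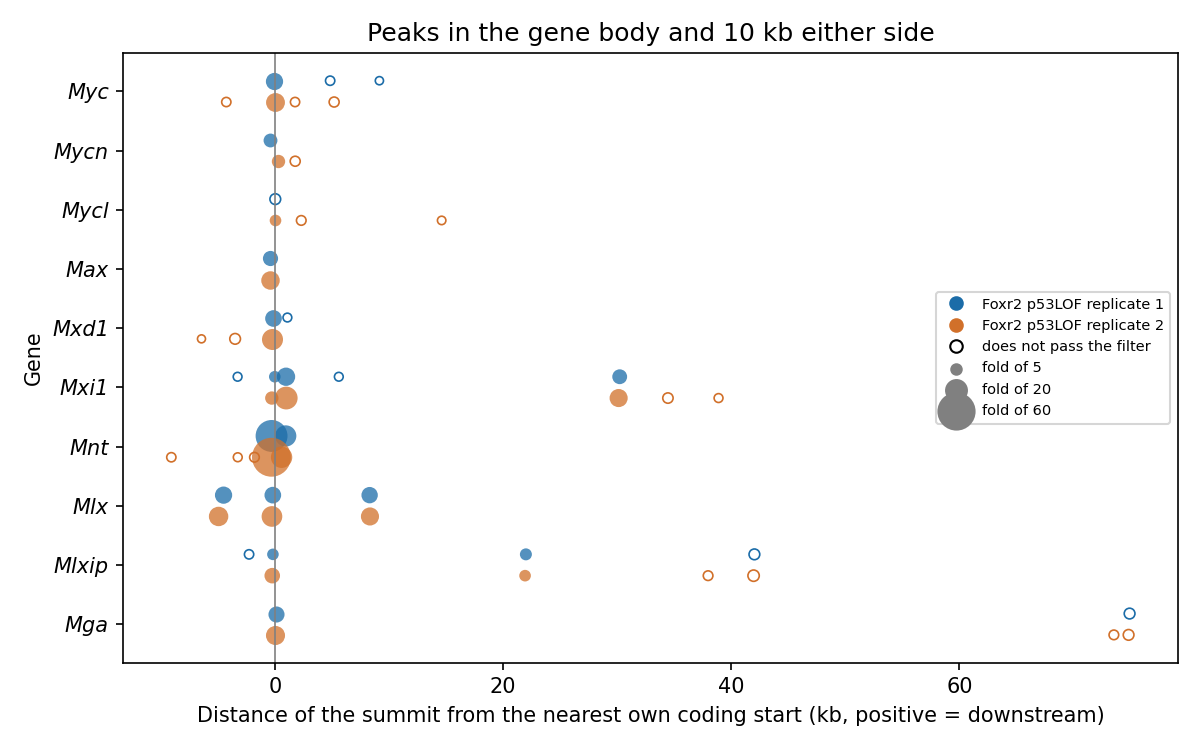
Every peak in the body or within 10 kb of the 10 network genes, by the distance of its summit from the nearest own coding start (kb). The area of a circle grows with the fold, filled circles passed the filter in their replicate and open ones did not. Large circles sit at the starts, and filled ones farther out are at Mxi1, Mlx and Mlxip.

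Around Myc, Foxr2 sites lined up on one side of the gene. The 500 kb either side of Myc hold no other protein-coding gene and 7 reproducible sites, namely the promoter and 6 stretches inside Pvt1, a long noncoding RNA gene that begins 52.6 kb downstream of Myc and is 340 kb long. Before the filter, 18 of the 20 peaks of replicate 1 and 29 of the 33 of replicate 2 were downstream of Myc. The upstream side held 1 and 2 peaks, with folds up to 3.98 and 3.94. No control peak fell in the window.

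The site at the start of Pvt1, chr15:62037413-62041630, was as high as that of Myc itself, with a fold of 16.3 in replicate 1 (36 fragments, 11.6 to 22.5) and 16.8 in replicate 2 (50 fragments, 12.5 to 22.0). The next 2 stretches, chr15:62042064-62042636 and chr15:62043134-62044415, are not independent of it. The first of them lies under the same replicate 1 peak as the start site and under the same replicate 2 peak as the second, whose folds were 11.5 and 9.86 with summits 58.7 kb downstream of Myc. Joined this way, the 7 stretches come to 5 sites. Inside Pvt1, a site 93.8 kb from the Myc start, chr15:62078605-62080840, had folds of 14.1 (31 fragments, 9.75 to 19.9) and 21.03 (63 fragments, 16.2 to 26.8). Weaker sites followed at 121 kb (6.19 and 9.53) and at 152 kb (7.07 and 11.5).

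The number of Pvt1 sites was set beside other windows of the genome. Stretches were counted without joining, around Myc as around every other gene. Over all protein-coding genes the median window of 500 kb either side held 8 sites, and 43.6% of genes had fewer than the 7 of Myc. On chromosome 15 the median was 14, so that by all sites the Myc window was sparse for its chromosome. Counting only sites farther than 1 kb from any coding start, Myc had 6 and the median gene 2, and 86.9% of genes had fewer. On chromosome 15, however, the median gene already had 5 such sites, and 57.0% had fewer than Myc. Of sites away from coding starts, the count around Myc is thus near the middle of its own chromosome. Whether the density of chromosome 15 plays a part in the row of Pvt1 sites was not tested.

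The Mycn window differed from that of Myc in its layout. It held 4 reproducible sites, the Mycn promoter, one at the start of Ddx1, an RNA helicase gene 307 kb upstream (7.51 and 6.90), one at the start of Nbas, a gene of retrograde vesicle transport (6.63 and 8.21), and 1 intergenic site. The intergenic site, chr12:12684118-12685521, is 257 kb downstream of Mycn, overlaps no annotated gene, and its nearest coding start is that of Mycn. Its fold was 14.1 in replicate 1 (31 fragments, 9.75 to 19.9) and 14.8 in replicate 2 (44 fragments, 10.8 to 19.7). Both values exceed those of the Mycn promoter, although the counting intervals overlap in each replicate. It stood at percentile 83.7 of all 11947 sites by the lower of its folds.

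At 2 positions near Mycn, peaks of both replicates overlapped but only one of them passed. A peak 37.2 kb downstream passed in replicate 1 (7.07, 15 fragments) but had a fold of 3.61 (10 fragments) in replicate 2. One 315 kb upstream had 5.74 in replicate 1 and 9.20 in replicate 2. In both cases the counting intervals of the replicates overlap (4.15 to 11.4 and 1.90 to 6.37, then 3.18 to 9.70 and 6.17 to 13.2). With 4 sites the window was below the median of 8 for all genes and of 5 for chromosome 12. Its single site away from coding starts compares with a median of 2, both over all genes and on chromosome 12.

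**Figure D4:**
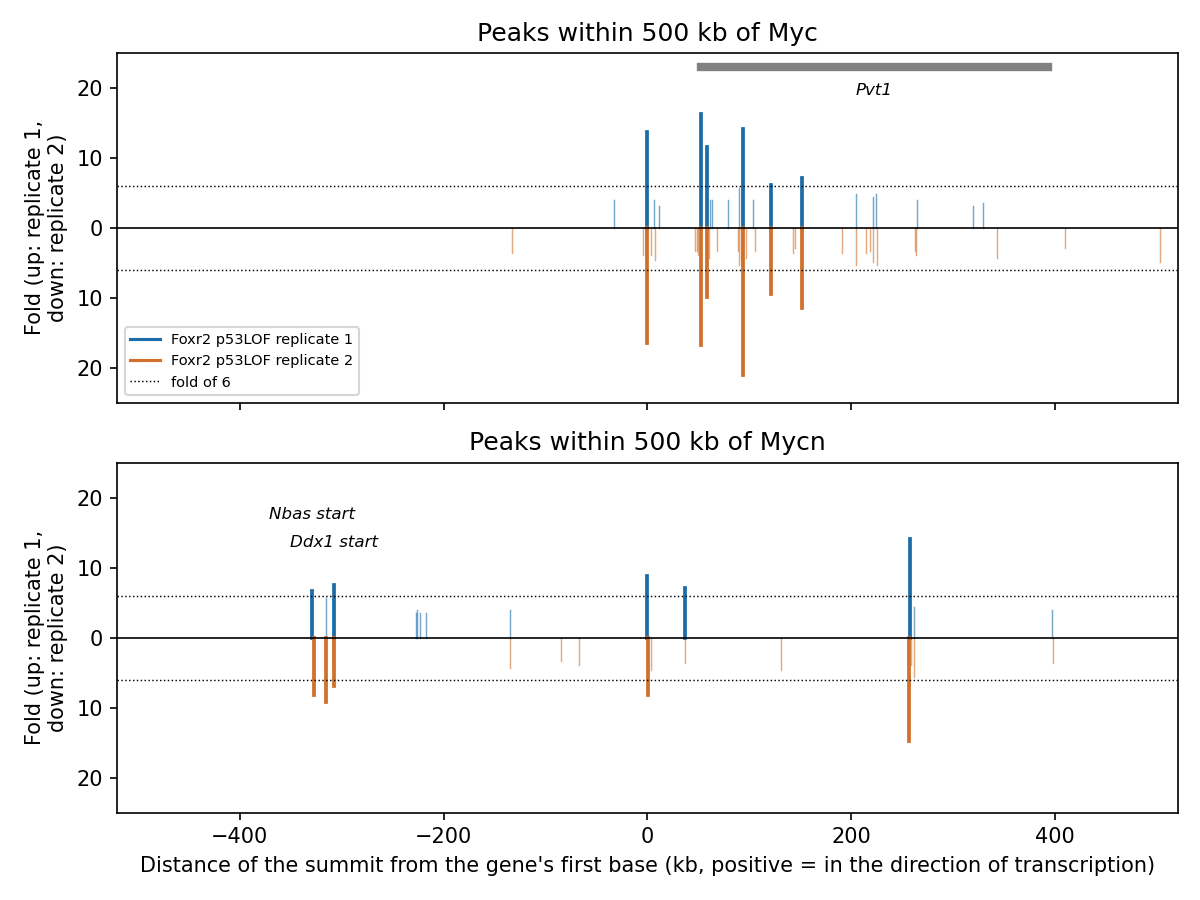
Peaks within 500 kb of Myc and of Mycn by the distance of the summit from the first base of the gene (kb), with the fold drawn upward for replicate 1 and downward for replicate 2. Thick lines passed the filter in their replicate, thin lines did not, and the grey bar is Pvt1. Peaks around Myc lie almost entirely on the Pvt1 side, with the highest upstream folds at 3.98 and 3.94, while the highest one around Mycn is the intergenic site 257 kb downstream.

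Of the searched motifs only GACGC occurred close to the promoter summits of the network, and the others were also uncommon at promoter sites in general. Motifs were searched on both strands in the 200 bp around the highest promoter summit of each of the 10 genes. CACGTG was in none of these windows in either replicate, compared with 5.06% and 4.98% of the windows of all 7807 promoter sites (replicate 1 and 2 summits) and 5.69% of the windows at the starts of all protein-coding genes. In windows of 400 bp it was found at 4 genes in replicate 1, Mnt, Max, Mlx and Mlxip, and at 3 in replicate 2. Of all promoter sites, 13.6% and 14.0% held it at that width. In replicate 1 the nearest E-boxes of these 4 genes were 122 to 187 bp from the summits. That range follows from their absence at 200 bp and presence at 400 bp, and the printed windows were placed to include them.

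CCGGAAGT and ACAGGAAGT, both bound by ETS factors, and TGTTTAC were in none of the 200 bp windows. They are rare at this width, at 1.33%, 0.231% and 1.60% of all promoter sites in replicate 1. GACGC was found at Mga and Mycn in replicate 1 and also at Myc in replicate 2, against 32.6% of promoter sites in both replicates. The GC content of the windows had a median of 59.0% in replicate 1 (43.0 to 76.5) and 61.3% in replicate 2 (44.5 to 78.0), near the 61.5% and 60.5% of all promoter sites. Mxi1 had the lowest value in both. A missing match says only that these letters are not in the window.

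Other genes of the MYC pathway were examined in the same way. Of 39 further genes in 5 lists, 38 had at least 1 reproducible site in the region and 36 had it at the promoter, next to 50.3% and 39.7% of all genes. Of the 28 among them with at least 10 CpG at the start, 25 had a promoter site, next to the 63.5% given above for genes of that kind. These counts were not tested, since the lists too were chosen with earlier results known. Over all genes with a site at their own start, the lower of the 2 folds at the highest such site had a median of 10.2, and the 9 network genes had 12.8.

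The 15 classic targets of MYC, genes of ribosome production, metabolism and the cell cycle, all had a promoter site, with a median of 16.8 at their own starts. Ncl, encoding the nucleolar protein nucleolin, led with folds of 29.6 and 40.1. For Cad, Fbl and Pa2g4 a higher site in the region lay at the start of a neighbour. Of the 3 relatives of MXD and MondoA, Mxd3 had 18.6 and 23.3 at its own start and Mxd4 had 11.5 and 16.1. The highest site near Mlxipl (37.1 and 52.9) lies at the start of its neighbour Tbl2. Mlxipl, the glucose-responsive ChREBP gene, had no site at its own start.

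The 8 coactivators and partners, with a median of 13.7 at their own starts, were led by the ATPase gene Ruvbl1 (20.3 and 21.7). All 8 genes that control MYC stability had a promoter site, with a median of 9.57 and the highest folds at the kinase gene Gsk3b (27.8 and 48.6). Of the 5 corepressors, 3 had a promoter site, with a median of 12.8, and Sin3a, the scaffold that MXD proteins recruit, was highest (22.1 and 41.7). The histone deacetylase gene Hdac1 had a site in its region, at the start of Marcksl1 (9.72 and 9.53), but none at its own. Sin3b, the paralog of Sin3a, was the only one of the 39 genes with no site in its region, and its highest peaks had folds of 3.53 and 4.60. The lists were not compared with each other by a test.

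**Figure D5:**
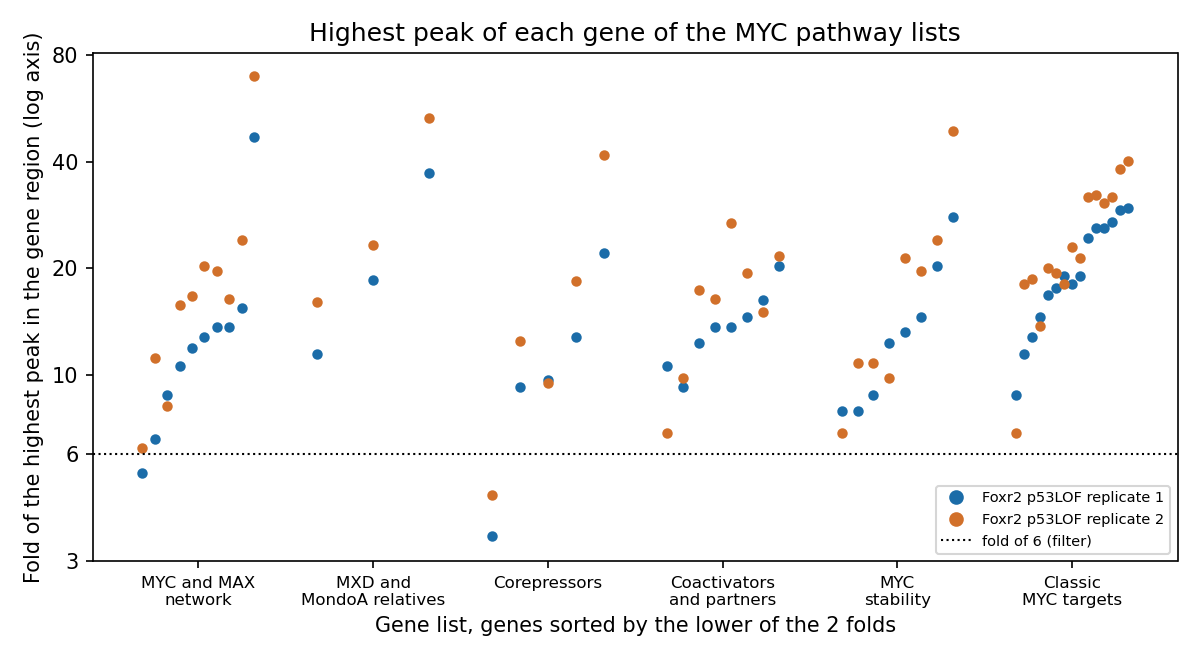
Fold of the highest peak in the region of each gene (log axis), for the network and for 5 lists of genes that work with it, in both replicates. Within a list, genes are sorted by the lower of the 2 folds, and the dotted line is the fold of 6. The highest peak can lie at the start of a neighbour, as near Mlxipl. Mycl and Sin3b are the only genes with a value below the line.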

How the data were processed

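V5 CUT&RUN peak lists of 4 libraries were used, mapped to groups by the sample labels. Per the submitters' processing notes and the methods, the authors trimmed reads with Trimmomatic 0.39, aligned them to mm10 with BWA 0.7.17, removed duplicates with Picard 2.26.6 and called peaks with MACS2 2.2.7.1 in each library, with no input library named. The deposited fold enrichment is a ratio made by the authors, each deposited −log10 p and −log10 q is MACS2's value within a library, and the deposited score is that −log10 q times a constant, which was not used.

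The peak filters of the methods were applied (fold and −log10 q above 6, length under 10000 bp, no overlap of 10 bp with a control peak). The further restriction there to regions open in single-nucleus ATAC data was not applied, and those data were not used here. The background of each library was fitted on peaks with a fold up to 30, of which 100% gave whole fragment numbers (within 0.02). Fragment numbers of all peaks were then computed from it, including the highest Mnt peaks, which lie above that limit. Read totals are not in peak lists, so exact Poisson 95% intervals of the fragments give the precision, for counting error only. Genes came from GENCODE M21 and sequence from GRCm38.p6 (Python 3.11.15, numpy 2.4.6, pandas 2.3.3, scipy 1.17.1, pysam 0.24.0). The recovery of background and fragment numbers was tested on simulated data, as was the finding of stretches shared by both replicates with removal at control peaks. The other steps were not. No hypothesis test was run.

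The genes, lists and motifs were chosen with earlier results of these data known. Named were all 10 network genes, the nearest coding gene of each site around Myc and Mycn with Pvt1, and in each list the highest gene and those without a site. Neighbours at whose start a peak lay (Coasy, Psmc3ip, Mapkbp1, Tbl2 and Marcksl1), and Mxd3, Mxd4, Cad, Fbl, Pa2g4, Mlxipl and Hdac1 where not named by this rule, were added after their values were seen. Alternatives covered the fold, q, length, overlap and control filters, the windows, the level of the chromosome, and leaving out each library. The limit of 10 CpG, the division by the site level of a chromosome, the joined stretches and the run without a minimum on fold or q were added after the data were seen.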

Additional observations from a re-analysis of the deposited data

How the results depend on the processing

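The count of network genes with a reproducible site, and with one at the promoter, was 9 in the main analysis and stayed within 1.5 times of that under every alternative run. Leaving out single libraries of either line gave 9 to 10 for both counts. A minimum fold of 10 left 7 genes, without Mycn, Mycl and Mlxip, a minimum −log10 q of 10 left 8, without Mycl and Mlxip, and with no minimum on either all 10 had a site. Around Myc, a minimum fold of 10 left 3 of the 7 sites, and leaving out a replicate of the Foxr2 line gave 6 sites each time. Around Mycn, a minimum fold of 10 left 1 of the 4 sites, a window of 250 kb either side left 1, since the other 3 lie farther out, and leaving out a replicate gave 5 each time. With the minimum fold, fewer peaks enter by construction. Dividing folds by the median fold of all peaks of their chromosome moved the replicate 2 values of Mycn (8.21 to 7.70) and Mycl (6.24 to 5.51) by more than 1 SD of the 2 replicates and no other network value, although the highest Mlxip peak of replicate 1 (6.63 to 5.68) and the Mycl peak of replicate 2 came to lie below the fold of 6. That median is the same on chromosome 11 as in the whole library, so Mnt and Mlx could not move. Dividing by the median fold of the reproducible sites of the chromosome moved Mycn in replicate 1 (8.84 to 9.28) by more than 1 SD and no other.

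No paired analysis was possible because every result is a count or a fold from peak lists and comes from no test. At these depths a fold near 6 rests on 13 fragments in replicate 1 and 18 in replicate 2, so Mycl and Mycn in both replicates, and Mlxip in replicate 1, cannot be placed firmly above or below the threshold.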
